A study of Mus musculus with 6 samples.

Results

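Shallow barcodes were the cell barcodes of 6 droplet single-cell libraries that carried from 500 to under 3000 unique molecular identifiers (UMIs, random tags by which each captured RNA molecule is counted once) and under 8% of UMIs from mt- genes, 13 in number, which the mitochondrion's own DNA encodes. They numbered 810 of 62849 deposited barcodes (1.29%). The rule used the UMI total and the mitochondrial share, so these are given as a description. The comparison set was the 60329 deep barcodes of 5000 or more UMIs, each thinned at random to a total drawn from the shallow barcodes of its own sample. Outside the rule lay 935 barcodes of the same depth with 8% or more mt- UMIs and 775 barcodes of 3000 to under 5000 UMIs.

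The cells were muscle-derived stem/progenitor cells (MDSPCs), slowly adhering cells obtained from digested mouse skeletal muscle by serial replating, grown in proliferation medium and loaded on a 10x Genomics 3′ single-cell system. Of the 6 populations, 3 came from young and 3 from old mice, and the study asked how MDSPCs differ with the age of the animal. The labels give each population as a separate biological replicate and name no age in numbers, sex, strain, allele or treatment. All 6 were expanded in flasks before loading, so both groups are cultured cells and not fresh muscle. Values per sample are given below in the order young 1, young 2, young 3, old 1, old 2 and old 3. The counting software differed between samples. Young 1 and old 1 have Cell Ranger 7.0.0 in their headers and 21849 features, the other 4 samples version 7.2.0 and 32285 features, called the shorter and the longer list. Young 1 and old 1 stood apart from the others in many results below. The labels also give both as biological replicate 1. The feature list, the software version and any other difference between these populations and the rest cannot be told apart. A LACZ feature, on the shorter list only, had 11 UMIs in the shallow barcodes of young 1 and 0 in those of old 1.

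The shallow barcodes numbered 76, 148, 146, 53, 143 and 244. Their median totals lay between 928 and 1561 UMIs per sample, against 13181 to 20110 for deep barcodes before thinning. Summed over barcodes they held 68254 to 393383 UMIs per sample. Their median mt- share was 1.77% to 2.76%, against 2.36% to 3.10% in deep barcodes. No barcode in the files had fewer than 500 UMIs, and emptier droplets were not analysed here.

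In droplet sequencing all RNA caught in a droplet receives the barcode of the bead in that droplet, and a barcode is counted as a cell when it collects enough molecules. RNA in the nucleus is partly unspliced and keeps its introns, whereas the mRNAs of ribosomal proteins are short, abundant and mostly cytoplasmic. Genes with very long introns, many of them known from neurons and synapses, therefore take a larger share of the reads in nuclear RNA when introns are counted. A damaged cell, a bare nucleus and RNA free in the medium can each give a barcode with few UMIs. The working name of the group was debris, nuclei and free RNA. Of the 810 barcodes, 504 carried recurrent barcode prefixes described next, and 596 were neither rich in long-gene RNA nor in muscle fibre RNA. Which of the 3 sources a barcode came from was not tested, so they are called shallow barcodes here.

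The barcodes themselves were examined first. Each was 16 bases long and was split into its first 8 bases (the prefix) and its last 8 bases (the suffix). A prefix was called recurrent when it occurred among the shallow barcodes of 2 or more of the 6 libraries. Of 65536 possible prefixes, 3838 occurred among deep barcodes and 98 were recurrent among shallow ones. The 98 recurrent prefixes covered 504 of the 810 shallow barcodes (62.2%). In the 4 samples on the longer list they covered 489 of 681.

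Many of these barcodes came in families that shared a suffix within a library. The largest family, in young 3, had 7 shallow barcodes with the suffix GTTGCTGT and 9502 UMIs in all. The largest in old 2 had 6 with the suffix GACTGGGT and 10238 UMIs. They are shown because the same 6 prefixes occurred in both, in separate libraries, one young and one old. Capitals mark the shared suffix, and each sequence is written 5′ to 3′.

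Young 3, 2901 UMIs: gttctataGTTGCTGT
Young 3, 2059 UMIs: ttctgtaaGTTGCTGT
Young 3, 1285 UMIs: ccaccataGTTGCTGT
Young 3, 996 UMIs: accgttcaGTTGCTGT
Young 3, 785 UMIs: ttgctgcaGTTGCTGT
Young 3, 781 UMIs: agtactgaGTTGCTGT
Young 3, 695 UMIs: ggaacccaGTTGCTGT
Old 2, 2584 UMIs: ggaacccaGACTGGGT
Old 2, 2115 UMIs: ttctgtaaGACTGGGT
Old 2, 1788 UMIs: agtactgaGACTGGGT
Old 2, 1446 UMIs: ttgctgcaGACTGGGT
Old 2, 1208 UMIs: ccaccataGACTGGGT
Old 2, 1097 UMIs: accgttcaGACTGGGT

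The seventh prefix of the young 3 family, GTTCTATA, occurred with the old 2 suffix in a deep barcode of 5906 UMIs. Over all samples the most frequent prefixes were TTGCTGCA with 21 shallow barcodes, GTTCTATA with 16 and ATTCCTAT with 14. The 6 most frequent together held 89 of the 504 (17.7%).

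The share of shallow barcodes with a recurrent prefix was 13.2%, 80.4%, 82.2%, 9.43%, 77.6% and 57.0%. It was high in the 4 samples on the longer list and low in young 1 and old 1, with 10 of 76 and 5 of 53 barcodes. Among deep barcodes the same prefixes held 2.57% to 2.80% in every sample. Among barcodes of the same depth with 8% or more mt- UMIs they held 0% to 3.90%, and the 0 of 107 in young 3 had an upper 95% limit of 3.47%. Intervals here are Wilson 95% intervals and cover counting error only.

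**Figure D1:**
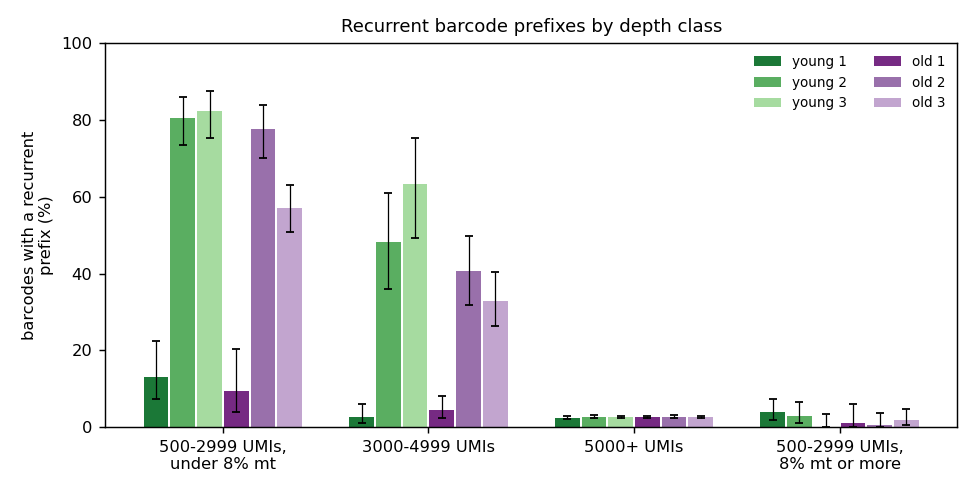
Percentage of barcodes (y axis) that carried one of the 98 recurrent prefixes, for 4 classes of barcode (x axis) in each of the 6 samples (bars), with Wilson 95% intervals. The shallow class under 8% mt- UMIs stands at 57.0% to 82.2% in young 2, young 3, old 2 and old 3, and at 13.2% and 9.43% in young 1 and old 1.

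Since the recurrent prefixes were picked from these shallow barcodes, their share there was partly fixed by the choice. A set chosen on other libraries does not have this limit. The 48 prefixes shared by the shallow barcodes of young 2 and old 2 were carried by 54.1% of the shallow barcodes of young 3 (95% interval 46.0% to 62.0%) and by 32.0% of those of old 3 (26.4% to 38.1%). The deep barcodes of those samples carried them at 1.32% and 1.26%. In the reverse direction, the 43 prefixes shared by young 3 and old 3 were carried by 41.9% of the shallow barcodes of young 2 (34.2% to 49.9%) and 41.3% of those of old 2 (33.5% to 49.5%). The deep barcodes there carried them at 1.26% and 1.19%. In all 4 samples the shallow interval lay far above the deep value.

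The same sets were rare in the libraries on the shorter list. The first set was carried by 3.95% of shallow barcodes in young 1 and 1.89% in old 1, and the second by 2.63% and 0%, the latter with an upper limit of 6.76%. The sets shared 23 prefixes, which is 47.9% of the first and 53.5% of the second. Suffixes chosen in the same way numbered 5 and 10, and were carried by 0.685% to 1.40% of the shallow barcodes and 0.0940% to 0.422% of the deep barcodes of the libraries not used to choose them. The suffix sets were much smaller than the prefix sets, so their shares are not compared. In each of the 4 libraries the suffix share, on 1 or 2 shallow barcodes, was above that of deep barcodes.

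The recurrent share depended on depth. In the 4 samples on the longer list it was 67.0% from 500 to under 1000 UMIs, 74.1% from 1000 to under 2000 and 73.7% from 2000 to under 3000. Above the upper limit of the rule it was 46.3% from 3000 to under 5000 UMIs, 21.7% from 5000 to under 7500 and 6.82% from 7500 to under 10000. From 15000 UMIs it was 1.59%. Barcodes with recurrent prefixes thus continued past the upper limit into the lower end of the deep set.

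Families were counted in every sample. They numbered 23 in young 2, 22 in young 3, 26 in old 2 and 31 in old 3, and held 47.9%, 52.5%, 58.6% and 51.1% of the recurrent barcodes. Young 1 and old 1 had none. The median sum of UMIs over a family was 3156, 3754.5, 3516 and 3685, below the median of a single deep barcode in each of these samples. Families were built from shallow barcodes only, each under 3000 UMIs, and deeper barcodes with the same suffix were left out. The low sums were thus largely fixed by the rule and are a description. Shallow barcodes without a recurrent prefix shared a suffix in 0 of 29, 0 of 26, 2 of 32 and 2 of 105 cases. These sets were smaller than the 119, 120, 111 and 139 recurrent barcodes. Sharing rises with the number of barcodes, so the shares are not compared. Among the many deep barcodes 93.8%, 93.3%, 89.1% and 95.7% shared a suffix within their library.

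RNA content was more alike within a family than in pairs of recurrent barcodes with different suffixes. Pairs of recurrent barcodes with the same suffix had a median Pearson correlation over the 500 most abundant genes of 0.113, 0.0909, 0.0611 and 0.117 in young 2, young 3, old 2 and old 3. Pairs with different suffixes, which include barcodes in no family, had medians of -0.00591, 0.000235, -0.00717 and 0.00795. These are weak correlations of sparse counts and are given as a description. The share of ribosomal protein UMIs differed by a median of 1.62, 1.47, 1.13 and 1.02 percentage points within families. It differed by 2.15, 2.53, 2.37 and 2.28 points in pairs with different suffixes. The mt- share differed by 0.946, 0.956, 0.683 and 0.522 points within families and by 1.55, 1.22, 1.00 and 0.963 points in pairs with different suffixes. All 3 measures went the same way in the 4 samples.

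Whole barcodes were also shared between libraries. Of 62388 distinct barcodes, 456 (0.731%) occurred in several libraries. Of shallow barcodes, 27 (3.33%) were also present in another library, against 1.44% of deep ones. The barcodes shared by the shallow sets of several libraries are printed with C and T in capitals. Some of them were made only of C and T, and others were not.

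Young 2, young 3, old 1 and old 2: TCTggCTTCTTCTggC
Young 3 and old 2: CTCCTTTTCTCTCCTC
Young 2 and young 3: TCTTCCTTCTTCTTCC
Young 3 and old 3: TCaaTTCTCgCCgaaC
Young 3 and old 3: TTgCTgCaggCCaCCT

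The first of these had 535 to 987 UMIs and at most 0.304% mt- UMIs in its 4 libraries. Barcodes made wholly of C and T numbered 6 of 810 shallow barcodes, 0 of 60329 deep ones and 0 of 935 shallow ones with 8% or more mt- UMIs. None of the 6 had more than 0.394% mt- UMIs. They lay in young 2, young 3 and old 2.

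A last group of 4 shallow barcodes differed by 1 base from a deep barcode of the same library. No pair of deep barcodes and no barcode with 8% or more mt- UMIs did so. The capital marks the base that differs, positions count from 1 at the 5′ end, and the substitution gives the shallow base first.

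Young 2 shallow, 753 UMIs: agaacaaagtgTtcat
Young 2 deep, 28806 UMIs: agaacaaagtgCtcat
Old 2 shallow, 616 UMIs: gtgcagcagtgTtcat
Old 2 deep, 21814 UMIs: gtgcagcagtgCtcat
Old 2 shallow, 1041 UMIs: gtcacggagGtcacct
Old 2 deep, 22670 UMIs: gtcacggagAtcacct
Old 2 shallow, 733 UMIs: tcatccgagGtcacct
Old 2 deep, 21064 UMIs: tcatccgagAtcacct

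The substitutions were T12C in the upper 2 pairs and G10A in the lower 2. The shallow barcodes with T12C, in young 2 and old 2, shared their suffix, and so did those with G10A, both in old 2.

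The RNA of the barcodes with recurrent prefixes was compared with thinned deep barcodes in the 4 samples on the longer list, a comparison chosen after the prefixes were seen. Actb, which encodes the cytoskeletal beta-actin, rose by 1.50 on the log2 scale, and a small set of other genes rose too. Many ribosomal protein mRNAs fell. Of 11731 genes tested with edgeR's quasi-likelihood test and Benjamini-Hochberg adjustment, 120 were higher (1.02%) and 520 lower (4.43%), 5.46% in all. In this fit edgeR used a spread shared over genes, with no weight on the gene's own, for 98.9% of genes, so its SEs and p-values can understate the spread between 4 samples. DESeq2, added after seeing the data, called 62 higher (0.529%) and 294 lower (2.51%), 3.03% in all, and 344 genes were called by both. Of the 12 higher genes that the rule named DESeq2 called 10 and gave no adjusted p for 2. Of 11 lower ones with a count in every sample it called 4 and gave none for 7.

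Actb had 12408, 15433, 17228 and 18908 CPM (counts of a gene scaled to the same library total in every sum) in recurrent barcodes of young 2, young 3, old 2 and old 3, against 4724, 5554, 4673 and 4315 in thinned deep barcodes. All 4 samples were higher, with no overlap between the classes. The log2 difference was 1.50 ± 0.07 (SE, adjusted p = 1.65e-75, edgeR). The ratios of the 4 samples themselves, before TMM scaling, had a mean log2 of 1.72 ± 0.35 (SD, n = 4) and an SE of 0.17, wider than that of the fit. DESeq2 gave 1.58 ± 0.12 (adjusted p = 4.70e-36). Actg1, which encodes gamma-actin, the closest cytoskeletal relative of Actb, had 3258, 4109, 4165 and 2990 CPM against 4094, 4623, 4643 and 2889. It was slightly lower, by -0.37 ± 0.07 on the log2 scale (adjusted p = 3.54e-05, edgeR), in 3 of 4 samples.

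The Actb difference was also present barcode by barcode. The median share of Actb in recurrent barcodes was 1.23%, 1.48%, 1.66% and 1.65% of UMIs, against 0.337% to 0.522% in the thinned deep barcodes of the 6 samples. Shallow barcodes without a recurrent prefix had medians of 0.539%, 0.202%, 0.482% and 0.897% in the same 4 samples. Summed over those other shallow barcodes Actb had 8693, 7960, 8953 and 15991 CPM, and was also higher than in deep barcodes, by 0.59 on the log2 scale (adjusted p = 0.0323, edgeR). That fit, too, used a shared spread alone for 98.9% of genes. In young 1 and old 1 the shallow medians were 0.0595% and 0.158%. Counts of shallow barcodes above the 99th percentile of thinned deep ones were 2, 46, 57, 1, 79 and 84. The difference between recurrent and other shallow barcodes was not tested directly.

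Spry2, an antagonist of receptor tyrosine kinase signalling, had 263, 81.9, 109 and 228 CPM against 49.8, 11.8, 22.8 and 53.7 (log2 difference 2.09 ± 0.18). Notch2, a receptor of the Notch pathway, had 214, 104, 150 and 187 CPM against 57.7, 20.3, 36.2 and 35.4 (1.95 ± 0.18). Cbx3, which encodes the heterochromatin protein HP1 gamma, had 643, 950, 546 and 1089 CPM against 225, 301, 139 and 273 (1.57 ± 0.10). For each of the 3 genes the lowest recurrent sample was above the highest deep sample. The adjusted p-values were 9.46e-29, 6.29e-25 and 9.92e-52 (edgeR).

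Rbm15, an RNA-binding protein of the m6A RNA methylation machinery, was higher by 2.02 ± 0.19 on the log2 scale. Nfia, a transcription factor, was higher by 1.50 ± 0.22, and Supt16, a subunit of the FACT histone chaperone, by 1.32 ± 0.13. Pam, an enzyme that amidates peptides, was higher by 1.24 ± 0.17 and Abhd2, a lipid hydrolase, by 1.18 ± 0.22. All 5 passed edgeR's test in this comparison, with adjusted p-values from 5.13e-22 for Rbm15 to 1.28e-05 for Abhd2.

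**Figure D2:**
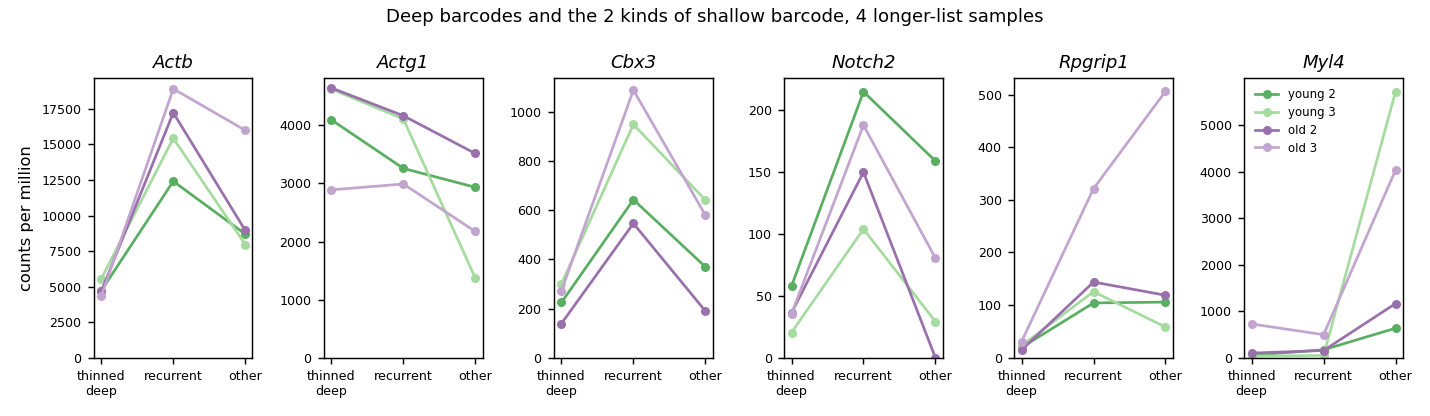
Summed level in CPM (y axis, linear, a separate scale for each gene) of 6 genes in thinned deep, recurrent and other shallow barcodes (x axis), 1 line for each of the 4 samples on the longer list. Actb, Cbx3 and Notch2 stand highest in recurrent barcodes, Rpgrip1 is above deep barcodes in both shallow kinds, and Myl4 stands highest in the other shallow barcodes.

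A pair of the higher genes lay side by side in each of 2 places of the genome. Supt16 (GRCm38, chr14:52160414-52197416, minus strand) overlaps Rpgrip1 (chr14:52110704-52163546, plus strand) by 3133 bases at their ends. Rpgrip1, a ciliary protein known from photoreceptors and looked up after Supt16 was seen, had 104, 126, 144 and 321 CPM against 19.6, 22.9, 14.8 and 30.7, a log2 difference of 2.77 ± 0.18 (adjusted p = 7.01e-47, edgeR). Myef2 (chr2:125084628-125123661, minus strand) overlaps Slc24a5 (chr2:125068124-125088677, plus strand), known from pigment cells, by 4050 bases. They were higher by 1.22 ± 0.16 and 1.30 ± 0.17. In the other shallow barcodes of the 4 samples Rpgrip1 was higher by 2.81 and Slc24a5 by 1.85 (adjusted p = 1.21e-09 and 6.66e-06, edgeR). The differences of these 2 genes were thus not particular to recurrent barcodes. Their partners did not pass there, with Supt16 at -0.36 and Myef2 at 0.10 (adjusted p = 0.710 and 0.947, edgeR). That fit used a spread shared over genes alone for 98.9% of genes. The 2 pairs held the only higher genes within 20 kb of each other. How the counting used strand is not stated in the sources used here, so reads of such overlapping partners cannot be told apart.

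The rule named 12 lower genes. Fahd1, a mitochondrial decarboxylase, had 12.2, 10.9, 23.0 and 4.46 CPM in recurrent against 39.8, 17.5, 52.3 and 29.0 in deep barcodes (log2 difference -1.70 ± 0.41, adjusted p = 0.00170, edgeR). Clpp, a protease of the mitochondrial matrix, had 36.7, 49.1, 86.3 and 58.0 CPM against 80.7, 98.2, 117 and 101 (-1.01 ± 0.21). Rpf2, a ribosome assembly factor, was lower by -1.54 ± 0.36. Mrpl16 and Mrpl38, of the large mitochondrial ribosomal subunit, were lower by -1.01 ± 0.28 and -0.95 ± 0.21. DESeq2 gave no adjusted p for Fahd1, Rpf2 and Mrpl16. Fahd1 and Rpf2 had at most 28.8 CPM in any recurrent sum and rest on few UMIs. In the other shallow barcodes they had 0.39 and -0.12, which did not pass (adjusted p = 0.800 and 0.954, edgeR).

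Of the 91 ribosomal protein genes tested in this comparison, 74 were lower and none higher, while of all genes 4.43% were lower and 1.02% higher. DESeq2 called 70 of them lower, against 2.51% of all genes. Their median was -0.40 against -0.07 over all genes tested. Of 20 nuclear genes of oxidative phosphorylation, 13 were lower. Of 16 mRNAs on the cytoskeletal list, 11 were lower and 2 higher. That list also holds Lgals1, of a secreted lectin, and S100a6, of a calcium-binding protein. The list of long neuronal and synaptic genes had 4 of 44 higher and a median of 0.42, and genes spanning 100 kb or more had a median of 0.17. None of 9 muscle fibre genes was called, and their median was 0.03.

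All shallow barcodes together, recurrent ones included, were next compared with thinned deep barcodes over the 6 samples, with the library as a block. The genes that rose included Myl4, an embryonic and atrial myosin light chain with the largest difference among those named by the rule, Notch2 and several long genes. The 2 that fell were Mrpl38 and Ifi30. With edgeR's quasi-likelihood test, 45 of 12148 genes were higher (0.37%) and 2 lower (0.0165%), 0.387% in all, while 2701 had an unadjusted p under 0.05. Of the 45, 28 were higher in all 6 samples. Some calls rested on 1 library, such as Col1a1 and Klk8, whose 20 and 18 shallow counts all lay in old 3. DESeq2 called 230 higher (1.89%) and 308 lower (2.54%), 4.43% in all. The count depended on single libraries. It was 26 genes without old 1, 27 without young 3, 79 without young 2, 83 without young 1 and 240 without old 3.

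Myl4 had 2421, 259, 942, 1115, 352 and 1979 CPM in shallow and 130, 51.9, 33.4, 12.2, 100 and 725 CPM in deep barcodes. It was higher in 6 of 6 samples, by 3.01 ± 0.56 on the log2 scale (adjusted p = 0.0408, edgeR). In recurrent barcodes alone, over 4 samples, edgeR gave -0.025 ± 0.35 and DESeq2 0.43 ± 0.47, and 3 of 4 samples were higher. In the other shallow barcodes of the same 4 samples the difference was 3.65, which did not pass (adjusted p = 0.395, edgeR). Over all 6 samples without recurrent barcodes Myl4 was higher by 3.94 (adjusted p = 1.39e-11, edgeR). That fit used a spread shared over genes alone for 94.6% of genes, so its p-values can understate the spread between samples. Notch2 had 107, 204, 91.9, 132, 120 and 142 CPM against 15.4, 57.7, 20.3, 26.8, 36.2 and 35.4 (1.70 ± 0.23, adjusted p = 7.90e-05, edgeR). Every shallow value of Notch2 was above every deep one.

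The other genes that the rule named were higher in all 6 samples. This was a condition for being named, for Myl4, Notch2 and Mrpl38 too, and not a result. Camk1d, a calcium-dependent kinase, was higher by 1.81 ± 0.37, Nr6a1, an orphan nuclear receptor, by 1.60 ± 0.29, and Srgap3 by 1.28 ± 0.27. Pdgfd, a growth factor, was higher by 1.39 ± 0.32 and Pan3, a subunit of an mRNA deadenylase, by 1.27 ± 0.26. Camk1d ranged from 27.6 to 616 CPM in shallow and from 12.3 to 48.9 in deep barcodes, and its levels of 342 in young 1 and 616 in old 1 were the highest. Insig1, a membrane protein of the sterol response, was higher by 1.46 ± 0.29, Rbm15 by 1.53 ± 0.26, Nfia by 1.45 ± 0.26 and Abhd2 by 1.32 ± 0.24.

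Leaving out the recurrent barcodes, which leaves 306 of 810, ended the call of 4 of these genes. The log2 difference was then 0.94 for Notch2 (adjusted p = 0.154, edgeR), 0.61 for Rbm15 (0.481), 0.70 for Insig1 (0.431) and 1.05 for Nfia (0.130). For Myl4, Camk1d, Nr6a1, Pdgfd, Abhd2, Srgap3 and Pan3 the call remained, and the rise of Camk1d was then 2.45. In all, 35 of the 47 called genes were still called. Lower genes were Mrpl38, by -1.13 ± 0.26 in 6 of 6 samples (adjusted p = 0.0403, edgeR), and Ifi30, a lysosomal reductase, by -1.73 ± 0.37 in 5 of 6.

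More genes were called over 6 samples when the 504 recurrent barcodes were left out, but not over the 4 samples on the longer list. Over 6 samples, 443 genes were higher (3.76%) and 759 lower (6.44%) of 11784 tested, 10.2% in all. In that fit edgeR used a spread shared over genes alone for 94.6% of genes, and in the fit with all shallow barcodes for none, and the part of this in the counts was not tested. Within the 4 samples on the longer list, 69 were higher (0.603%) and 204 lower (1.78%) of 11441, 2.39% in all. All shallow barcodes of those 4 samples gave 169 higher (1.31%) and 859 lower (6.65%) of 12924, 7.95% in all, and recurrent barcodes alone the 640 given above. In these 4-sample fits a shared spread alone was used for 97.1% of genes with all shallow barcodes and 98.9% without recurrent ones. Their counts carry the same limit.

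RNA by genomic span was taken from the annotated length of each gene (GENCODE M21, GRCm38), which matched 21459 of 21485 shared identifiers. Genes of 100 kb or more held 22.4%, 8.73%, 9.87%, 20.4%, 6.92% and 6.47% of non-mitochondrial UMIs in shallow barcodes. In thinned deep barcodes they held 4.26%, 6.57%, 6.64%, 5.54%, 5.76% and 5.07%. The shallow value was above the deep value in all 6 samples, by far the most in young 1 and old 1. Barcodes of the same depth with 8% or more mt- UMIs stood higher still, at 31.6%, 22.7%, 25.5%, 32.5%, 26.3% and 31.9%.

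**Figure D3:**
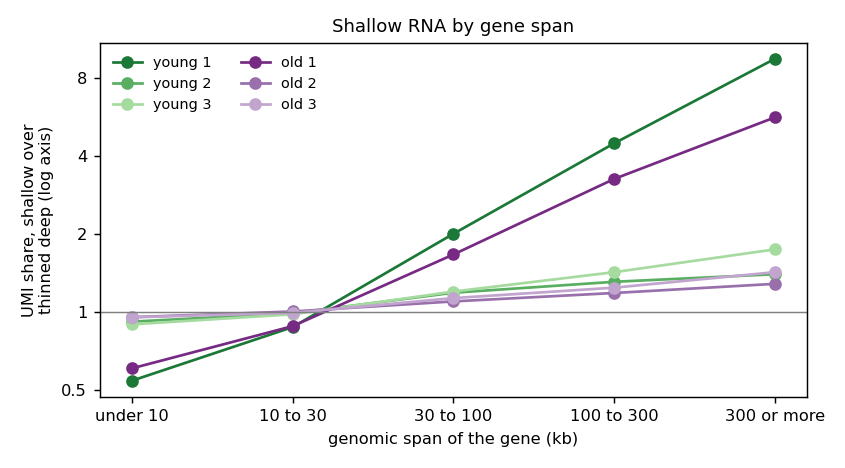
Share of UMIs in shallow barcodes divided by that in thinned deep barcodes of the same sample (y axis, log scale) for 5 classes of genomic span in kb (x axis), 1 line per sample. All 6 lines rise with span, and young 1 and old 1 rise most, with 6.46% against 0.681% and 5.68% against 1.01% of UMIs at 300 kb or more.

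The share of genes called higher was largest in the longest class but did not rise evenly. It was 0.360% under 10 kb (10 of 2774), 0.129% from 10 to 30 kb (5 of 3887), 0.249% from 30 to 100 kb (9 of 3615), 0.762% from 100 to 300 kb (11 of 1443) and 2.42% at 300 kb or more (10 of 414). Genes of 100 kb or more made up 46.7% of the higher genes and 15.3% of all tested. Median log2 differences were -0.50, -0.22, 0.11, 0.48 and 0.87 from the shortest to the longest class. Across 12133 genes the Spearman correlation of span with the log2 difference was 0.496, a description only, since genes are not independent and long genes differ from short ones in level and base composition. Without recurrent barcodes 126 of 393 genes of 300 kb or more were higher (32.1%) and 449 of 2663 under 10 kb lower (16.9%).

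A barcode was called long-high when its share from genes of 100 kb or more was above the 99th percentile of the thinned deep barcodes of its sample. Long-high barcodes numbered 48 of 76 in young 1 (63.2%) and 33 of 53 in old 1 (62.3%), but 21, 25, 8 and 19 in young 2, young 3, old 2 and old 3 (14.2%, 17.1%, 5.59% and 7.79%). Of the 154 in all, 116 were also below the 1st percentile of deep barcodes for ribosomal protein UMIs. Their median ribosomal protein share was 2.23% in young 1 and 3.04% in old 1, against 22.6% and 22.3% in thinned deep barcodes. Their median mt- share was 2.77% and 3.00%. The numbers of barcodes within 1 percentage point of the long-high limit were 1, 13, 13, 2, 7 and 15, so few barcodes lay near the limit in young 1 and old 1.

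**Figure D4:**
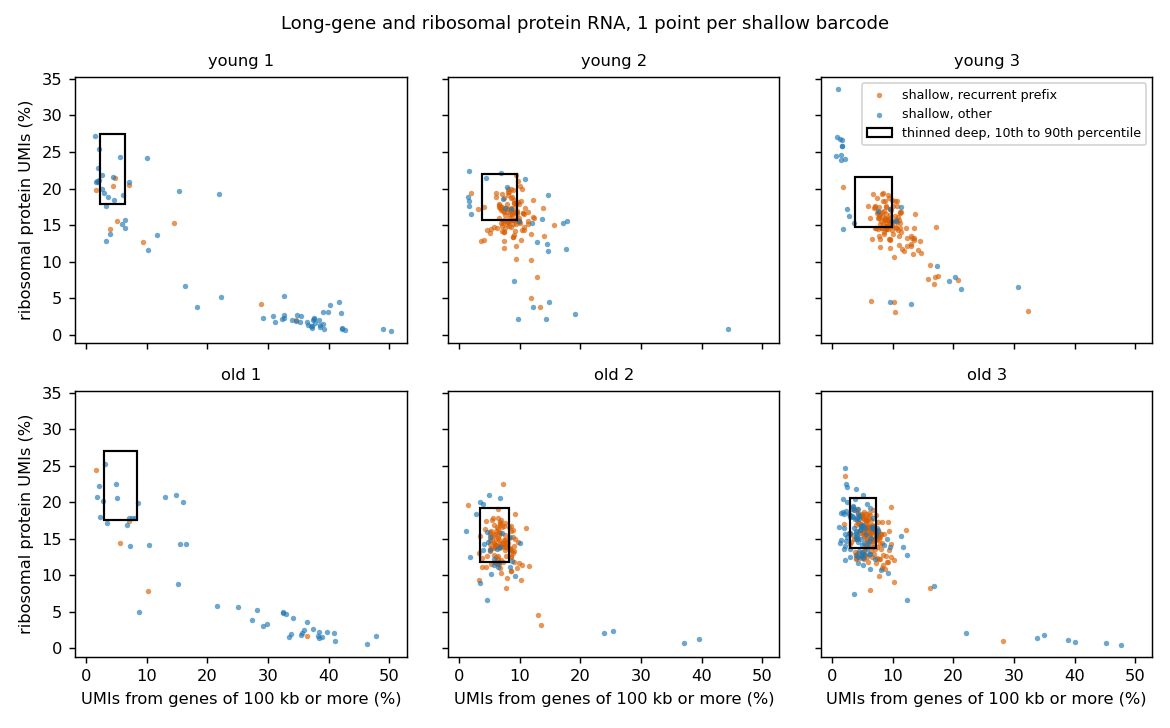
Each point is 1 shallow barcode, placed by its percentage of UMIs from genes of 100 kb or more (x axis) and from ribosomal protein genes (y axis), 1 panel per sample, orange for recurrent prefixes and blue for the others. The box spans the 10th to 90th percentile of thinned deep barcodes. Most points of young 1 and old 1 lie to the lower right of the box, with shallow medians of 25.6% and 21.6% long-gene UMIs and 4.79% and 5.61% ribosomal protein UMIs.

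The 4 named long genes were chosen with their pattern known, so their values are a description. Nkain2, which encodes a protein that interacts with the sodium pump (chr10:31689310-32890462, minus strand), had 1542, 34.8, 106, 969, 41.7 and 82.9 CPM in shallow and 94.2, 26.4, 44.5, 109, 40.1 and 13.4 CPM in thinned deep barcodes. It was higher in all 6 samples, from 16.4 times in young 1 to 1.04 times in old 2. Magi2, a synaptic scaffold (chr5:19227036-20704792, plus strand), had 1523, 44.8, 299, 778, 181 and 41.4 CPM against 87.5, 42.6, 135, 87.6, 136 and 24.4. It too was higher in all 6, from 17.4 times in young 1 to 1.05 times in young 2.

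Pcdh9, a cell adhesion protocadherin (chr14:93013410-93890679, minus strand), ranged from 18.5 to 713 CPM in shallow and from 7.80 to 41.8 in deep barcodes and was higher in 5 of 6 samples. Dlg2, the postsynaptic scaffold PSD-93 (chr7:90476672-92449247, plus strand), ranged from 4.60 to 478 against 3.51 to 85.8 CPM and was also higher in 5 of 6. Its ratios of 48.6 in young 1 and 58.6 in old 1 were the highest of the 4 genes. The fitted log2 differences were 1.66 ± 0.36 for Nkain2, 1.24 ± 0.37 for Magi2, 1.48 ± 0.38 for Pcdh9 and 1.92 ± 0.91 for Dlg2 (SE over 6 samples). Without young 1 and old 1, over the 4 samples on the longer list, they were 1.04, 0.45, 0.63 and 0.60. In those 4 samples they were 0.84 ± 0.25, 0.47 ± 0.17, 0.21 ± 0.39 and 0.19 ± 0.24 (SE) for recurrent barcodes alone. For the other shallow barcodes they were 1.26 ± 0.46, 0.30 ± 0.37, 1.36 ± 0.56 and 0.91 ± 0.40. Both fits used a shared spread alone for 98.9% of genes. The values for the others rest on few UMIs. In young 2 those barcodes had 0 CPM of Nkain2, Magi2 and Dlg2 and 26.4 CPM of Pcdh9.

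**Figure D5:**
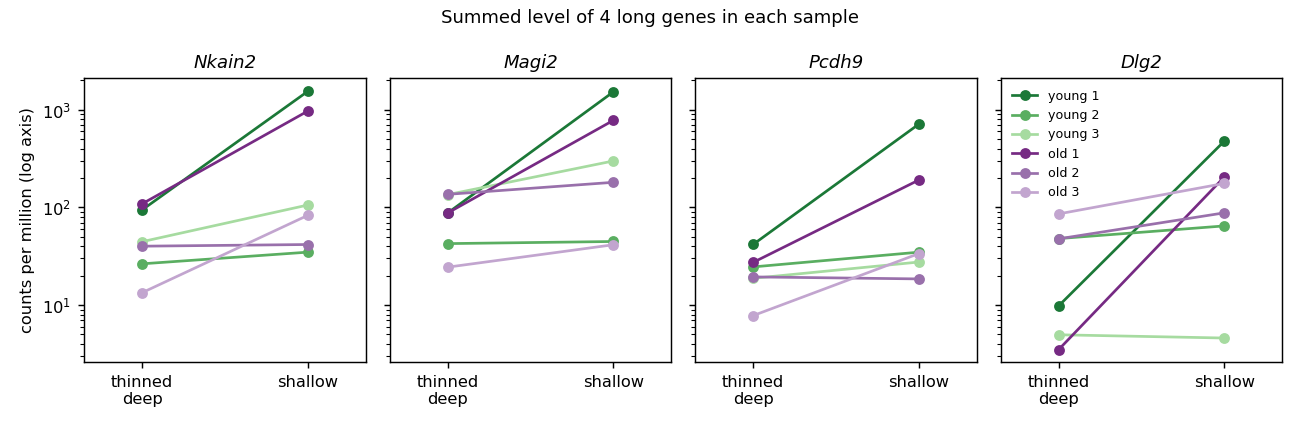
Summed level in CPM (y axis, log scale) of Nkain2, Magi2, Pcdh9 and Dlg2 in thinned deep and shallow barcodes (x axis), 1 line per sample. Young 1 and old 1 rise most in every panel, and the lines of the other 4 samples rise less, are flat or fall slightly.

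Together the 4 genes held 4247, 175, 429, 2139, 323 and 328 CPM in shallow and 233, 139, 201, 227, 240 and 130 CPM in deep barcodes. Long-high barcodes held 98.2% of their UMIs in young 1 and 91.8% in old 1, but 5.56%, 25.3%, 21.1% and 65.9% in young 2, young 3, old 2 and old 3. The 4 genes are among those that define long-high barcodes, so this share is partly fixed by the definition and is a description. At least 1 UMI of any of the 4 was found in 67.1%, 16.9%, 39.7%, 62.3%, 34.3% and 20.9% of shallow barcodes. In deep barcodes thinned to the same depth it was found in 21.3%, 15.1%, 22.5%, 20.3%, 26.3% and 16.1%, and before thinning in 75.2%, 70.3%, 78.4%, 74.3%, 85.4% and 62.1%. The gap was wide in young 1 and old 1 and narrow in young 2, old 2 and old 3.

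The wider list of 58 long neuronal, adhesion and synapse genes, which holds the 4, was mostly above 0. Of 47 tested, 43 had a value above 0 and the median was 0.97, against -0.07 over all genes. Apart from Nkain2, the genes that passed edgeR's test were Robo1, an axon guidance receptor (1.17 ± 0.27), and Csmd3, a large membrane protein (1.78 ± 0.38). That makes 3 of 47 higher, against 0.37% of all genes. Without recurrent barcodes 16 of 46 were higher, against 3.76% of all genes but 32.1% of genes of 300 kb or more, so the list was close to other very long genes. It also holds the 4 genes chosen with their pattern known, 3 of which are among the 16. Pcdh7, another protocadherin, had a log2 difference of 0.91 ± 0.29 (adjusted p = 0.102, edgeR) and Ank3, a cytoskeletal adaptor, 0.87 ± 0.26 (adjusted p = 0.0896, edgeR). Both were higher in 6 of 6 samples.

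Markers that define neurons and glia were low in level in both kinds of barcode. The 12 neuronal markers, among them the neurofilament gene Nefl and the synapsin gene Syn1, summed to 36.4 to 249 CPM in shallow and 25.7 to 101 CPM in deep barcodes. None of the 5 tested passed and their median was -0.12, which turned to 0.03 with RLE size factors and to 0.52 with no scaling. The 10 glial markers summed to 4.87 to 244 CPM against 7.81 to 136, and none of 4 tested passed. Syn1 had a log2 difference of 0.99 ± 0.50 (adjusted p = 0.235, edgeR) and Nefl -0.13 ± 0.38 (adjusted p = 0.892, edgeR).

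The scaling of libraries shifted all values together. The median of all genes tested was -0.07 with TMM scaling and 0.31 with no scaling beyond the library total, so list medians are read against that of all genes. Ribosomal protein genes had a median of -0.90 with TMM and -0.46 with no scaling, and stayed below the all-gene median in both.

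Ribosomal protein mRNAs, which encode the ribosome itself, held 9.50%, 15.7%, 14.9%, 10.7%, 13.8% and 14.9% of UMIs in shallow and 22.2%, 18.3%, 17.7%, 21.8%, 15.2% and 16.7% in deep barcodes. The shallow share was lower in all 6 samples. In the fit over all shallow barcodes none of 91 was called, and 8 had a value above 0. Without recurrent barcodes 74 were lower and 2 higher, against 6.44% and 3.76% of all genes. Rps2, of the small subunit, had a log2 difference of -1.17 ± 0.42 with all shallow barcodes (adjusted p = 0.122, edgeR) and fell by 1.39 without recurrent ones (adjusted p = 0.000473, edgeR).

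Other lists of abundant mRNAs had medians below that of all genes, with no gene called, where 0.0165% of all genes were lower. Without recurrent barcodes 6.44% of all genes were lower. Nuclear genes of oxidative phosphorylation had a median of -0.69, with none of 20 called and none above 0, and 8 lower without recurrent barcodes. Ndufa4, Cox5a and Cox7c, of the respiratory chain, were each lower in 6 of 6 samples, with log2 differences of -0.79, -0.83 and -0.76 that did not pass. Summed levels did not all follow the medians. Cytoskeletal mRNAs summed to 28544, 50627, 50723, 26240, 70119 and 72817 CPM in shallow against 58268, 49287, 46782, 46345, 64401 and 63059 CPM in deep barcodes, higher in 4 of 6 samples. Actb alone had a mean of 10704 against 4781 CPM, but was lower in young 1 (1777 against 3878) and old 1 (3185 against 5542). Its log2 difference of 0.41 did not pass (adjusted p = 0.694, edgeR). The cytoskeletal mRNAs had a median of -0.84, with none of 16 called and 11 lower without recurrent barcodes. Their list also holds Lgals1, the secreted lectin galectin-1, and S100a6, a calcium-binding protein. Lgals1 and S100a6 had log2 differences of -1.11 and -1.02 with all shallow barcodes and fell by 1.29 and 1.37 without recurrent ones. Heat shock genes had a median of -0.71 with none of 10 called, and 5 were lower without recurrent barcodes. Their sum was lower in 4 of 6 samples, and in young 2 and old 2 it was 8533 against 8531 and 6309 against 6214 CPM.

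Muscle fibre genes gave a different pattern. The 11 fibre genes summed to 12226, 8445, 3670, 8249, 2109 and 12082 CPM in shallow and 947, 3048, 220, 154, 1628 and 9180 CPM in deep barcodes. The shallow level was higher in all 6 samples. In the fit none of 10 was called and the median was 1.11, while without recurrent barcodes 3 rose, against 3.76% of all genes. Mylpf, the fast skeletal myosin light chain, had a log2 difference of 2.37 ± 0.65 (adjusted p = 0.0923, edgeR), and Ttn, the spring protein titin, of 1.15 ± 0.52 (adjusted p = 0.203, edgeR). With all shallow barcodes Ttn was higher in 4 and lower in 2 samples. It passed without recurrent barcodes, at 1.74. Mylpf, Acta1 and Tnnc2 had larger differences there, 3.22, 3.26 and 4.05, and did not pass (adjusted p = 0.0727, 0.125 and 0.0613, edgeR).

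Shallow barcodes with under 0.5% mt- UMIs, a limit set after the data were seen, numbered 18, 11, 18, 8, 10 and 53, or 118 in all (14.6% of shallow barcodes). Among deep barcodes 13.9%, 0.864%, 0.837%, 5.40%, 1.22% and 0.878% were under that limit. Since the mt- share is part of the rule, the genes of these barcodes are described without a test. Relative to thinned deep barcodes, the summed level of Myl4 was higher by a mean of 5.94 on the log2 scale, Myl1, a fast myosin light chain, by 5.82, Tnnc2, the fast troponin C, by 5.68 and Acta1, the skeletal muscle actin, by 5.41. Mean levels were 6740 against 175 CPM for Myl4 and 21606 against 1261 CPM for Mylpf. All 5 were higher in 6 of 6 samples, from 8.45 in old 1 to 3.10 in old 3 for Myl4.

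Among genes with a mean of at least 500 CPM in these barcodes, a limit that leaves out genes that are lower still, the lowest relative to deep barcodes were Cd63, a tetraspanin of endosomes and exosomes, at a mean of -3.27, and Spp1, the secreted matrix protein osteopontin, at -2.24, both lower in 6 of 6 samples. Malat1, a long non-coding RNA retained in the nucleus and measured on the longer list only, had no UMI in 54.5%, 72.2%, 50% and 60.4% of them in young 2, young 3, old 2 and old 3. Among the remaining shallow barcodes it had none in 7.81% to 16.8%. Median totals of the groups were 1018, 765, 1014.5 and 1704 UMIs against 1258, 1448, 1452 and 1470, so the low-mitochondrial barcodes were shallower in 3 samples and deeper in old 3. Near the limit, 66 shallow barcodes had an mt- share between 0.25% and 0.75%.

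Of the 810 shallow barcodes, 72 were above the 99th percentile of deep ones for muscle fibre UMIs, and 46 of these were among the 118 with under 0.5% mt- UMIs. By sample, 13, 4, 13, 5, 3 and 8 fibre-high barcodes were under that limit and 2, 4, 3, 14, 0 and 3 above it, so most lay above it in old 1 and young 2 was evenly split. Only 13 of the 118 were long-high and 22 had a recurrent prefix. Fibre-high and long-high barcodes overlapped in 12 cases, 11 of them in old 1 and 1 in young 3. The fibre limit lay near 0 in young 3 and old 1, where 131 and 43 barcodes were within 1 percentage point of it, so the fibre-high count is loose there.

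Nuclear non-coding RNAs could be read in the 4 samples on the longer list. Malat1 had 6128, 5503, 6486 and 5308 CPM in shallow against 3196, 2183, 4288 and 2928 in deep barcodes. Neat1, the scaffold of paraspeckles, had 409, 370, 268 and 180 CPM against 244, 190, 172 and 92.9. Both sums were higher in 4 of 4 samples. By barcode, the median Malat1 share of non-mitochondrial UMIs was 0.404%, 0.373%, 0.297% and 0.185% in shallow against 0.213%, 0.140%, 0.292% and 0.195% in deep barcodes. At least 1 Malat1 UMI was found in 88.5%, 84.2%, 85.3% and 73.8% of shallow and 80.6%, 72.4%, 84.2% and 78.9% of thinned deep barcodes. In old 3 both values per barcode were thus lower in shallow barcodes. Xist, the RNA that coats the inactive X chromosome, had 608, 524, 400 and 480 CPM against 630, 439, 281 and 523, and was higher in 2 of 4. Gm42418, a non-coding gene that overlaps a ribosomal RNA repeat, had 1509, 916, 1154 and 1469 CPM against 876, 534, 611 and 539, and 5384 to 24519 CPM in the barcodes with 8% or more mt- UMIs. Lars2, a mitochondrial tRNA synthetase gene, had 351 against 16.8 CPM in young 1 and 894 against 43.1 in old 1. In young 2, young 3, old 2 and old 3 it had 29.2 against 28.7, 49.7 against 22.3, 63.6 against 27.2 and 68.6 against 23.9 CPM.

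Markers of several other cell types were rare. Erythroid markers had 1 count in all shallow barcodes, macrophage markers 5 and endothelial markers 16, and Cdh5, the endothelial cadherin, had none. Fibro-adipogenic markers summed to 156 to 458 CPM in shallow and 289 to 521 CPM in deep barcodes, and none of 7 tested passed. Smooth muscle and pericyte markers had 994 counts and summed to 305 to 1162 CPM, above the deep level in 4 of 6 samples. Most of this sum was Acta2, the smooth muscle actin, with a mean of 689 CPM in shallow barcodes. Cspg4, the next highest, had a mean of 17.0 CPM, so the sum does not speak for the list as a whole. None of 5 markers tested passed, and without recurrent barcodes Acta2 rose by 0.95 (adjusted p = 0.0260, edgeR). Myogenic genes had a median of 0.53 with none of 10 called, and 2 were higher without recurrent barcodes, where 3.76% of all genes were. Myog, the myogenic factor myogenin, and Des, the filament protein desmin, had log2 differences of 1.25 and 0.92, each higher in 5 of 6 samples, and Des passed without recurrent barcodes, at 1.38. Myod1 and Chrna1, of the myoblast programme and the muscle acetylcholine receptor, had log2 differences of -0.30 and -0.37. None of 52 G2/M genes and none of 41 S phase genes passed, and 8 and 3 were lower without recurrent barcodes, among them Ube2c at -1.27 (adjusted p = 0.00226, edgeR). Of all genes 6.44% were lower in that comparison, so 3 of 41 is near the background, and with 0.387% of all genes called with all shallow barcodes little is to be read from no call in a list. Their medians were -0.16 and -0.15, which turned to 0.23 and 0.21 with no scaling and stayed below the all-gene median there. The 4 Y-linked genes had 9 counts over all shallow barcodes, 8 of them in old 1 and 1 in old 3. They summed to 117 CPM in shallow and 32.9 CPM in deep barcodes of old 1, and to at most 2.54 and 1.68 CPM elsewhere.

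Each summed profile correlated best with the deep barcodes of its own sample. The Pearson correlation of log2(CPM + 10) across genes was 0.758, 0.954, 0.952, 0.770, 0.961 and 0.969 with the sample's own deep barcodes. The best match among other samples gave 0.750, 0.895, 0.885, 0.743, 0.915 and 0.924. Without recurrent barcodes the own-sample values were 0.733, 0.839, 0.802, 0.754, 0.846 and 0.931. Genes are not independent replicates, so these are descriptions.

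The number of genes detected per barcode was compared with that of thinned deep barcodes. Medians were 756.5, 784, 826, 699, 916 and 853.5 genes in shallow and 662, 765, 829, 632, 866 and 857 in thinned deep barcodes. Before thinning the deep medians were 3371 to 4559 genes. The mean difference was 37.3 ± 39.8 genes (SD, n = 6 samples), higher in 4 of 6, with p = 0.125 in an exact paired permutation test, two-sided, whose smallest possible p is 0.03125. With a lower limit of 1000 UMIs it was 72.2 ± 80.3 genes, higher in 5 of 6 (p = 0.0625, same exact permutation test). Without recurrent barcodes the difference was -44.8 genes (p = 0.4375, same exact permutation test).

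Values on either side of the limits of the rule are given as a description. The 96 barcodes within 500 UMIs below the upper limit had a median of 6.62% long-gene UMIs and a recurrent prefix in 64.6%, and the 95 within 500 UMIs above it had 6.57% and 50.5%. The 19 shallow barcodes within 1 percentage point below the mt- limit had medians of 10.3% long-gene and 14.2% ribosomal protein UMIs. The 12 within 1 point above it had 21.9% and 3.28%. The 62 barcodes within 100 UMIs above the lower limit had a median of 9.43% long-gene UMIs.

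The share of shallow barcodes differed between old and young by less than the spread of samples. It was 0.853%, 1.34% and 1.34% in young and 0.517%, 1.60% and 1.91% in old samples, and the groups overlapped. The means were 1.18% ± 0.280 and 1.34% ± 0.730 (SD, n = 3 each), a difference of 0.165 percentage points (p = 0.8, exact permutation test, two-sided). With 3 samples against 3 the smallest possible p is 0.1. The sign turned to -0.116 without old 3 and to -0.0481 with no limit on the mt- share.

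Gene expression of shallow barcodes was also compared between old and young samples, with the feature list as a term. None of 5038 genes passed edgeR's quasi-likelihood test after Benjamini-Hochberg adjustment, and 280 had an unadjusted p under 0.05. DESeq2 called 5 higher and 1 lower, 0.119% in all (0.0992% and 0.0198%). The shallow-to-deep difference was tested for a dependence on age over 12148 genes. None passed with edgeR, with 236 at an unadjusted p under 0.05, and none with DESeq2, with 88. Without old 1 the count was 6 higher and 9 lower.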

How the data were processed

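Single-cell 3′ libraries of 6 MDSPC populations were deposited as matrices of UMI counts, whole numbers per gene and barcode. Per the submitters' processing notes the authors used Cell Ranger 7.2.0, Seurat 5.134 and build mm10. Per the file headers, young 1 and old 1 came from Cell Ranger 7.0.0. The treatment of introns and strand and the rule for calling cells are not given in the sources used here. Doublets were not treated. The members, lists and tests were chosen with earlier results of these data known, and the recurrent prefixes and the comparisons built on them were chosen after seeing the data.

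Barcodes were classed by UMI total and mt- share. Deep barcodes were thinned without replacement to totals drawn from the shallow barcodes of their sample. Counts were summed per sample and class over the 21485 shared genes and tested with edgeR 4.0.16 (quasi-likelihood, TMM, filterByExpr, Benjamini-Hochberg at 0.05) in R 4.3.3 with limma 3.58.1, with the library as a block, since shallow and deep barcodes of a sample come from 1 library. DESeq2 1.42.0 was an alternative. The age comparison had the feature list as a term. The scripts were tested on simulated data. Other steps used Python 3.11.15, numpy 2.4.6, scipy 1.17.1 and pandas 2.3.3. Genomic spans came from GENCODE M21 (GRCm38). Genes were named when they passed at 0.05, had a mean log2 CPM above 5 and moved the same way in all samples, up to 12 in each direction by fold, and up to 4 of the most abundant members of a list were named. The edgeR p-values and SEs rest on a spread estimated over samples and shared, in part or wholly, between genes, so they are not each gene's own spread, and summed shallow counts of 68254 to 393383 UMIs limit the precision for low genes.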

Additional observations from a re-analysis of the deposited data

How the results depend on the processing

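The number of genes called between shallow and deep barcodes, 47, depended on the processing. It was 538 with DESeq2, 16 with no scaling, 25 with no thinning, 220 with an upper limit of under 2000 UMIs and 4213 with no limit on the mt- share. It was 1028 in the 4 samples on the longer list, where edgeR used a spread shared over genes alone for 97.1% of genes. After seeing the data, 1202 were called without recurrent prefixes, 273 when that was also limited to those 4 samples and 640 with recurrent prefixes alone in them (356 by DESeq2). Leaving out each sample gave 26 to 240. Without the replicate block, which pairs the shallow and deep barcodes of a library, none was called by edgeR, and 1374 had an unadjusted p under 0.05.

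Between old and young shallow barcodes edgeR called 0 genes, DESeq2 6, and edgeR with no filter on low counts 62. Leaving out each sample gave 0 to 2. With a replicate block, from the replicate numbers of the labels, it was 0, with 262 at an unadjusted p under 0.05. The count of genes whose difference depended on age was 0 to 15 when each sample was left out.

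For Myl4 with recurrent prefixes alone edgeR gave -0.025 ± 0.35 (SE), while DESeq2 gave 0.43 ± 0.47 and 3 of 4 samples were higher. Signs turned for genes per barcode without recurrent prefixes (-44.8) and for the share of shallow barcodes with no mt- limit (-0.0481) and without old 3 (-0.116). Leaving out each sample moved that difference between -0.116 and 0.578 percentage points. The cause was not tested. The log2 differences of Nkain2, Magi2, Pcdh9 and Dlg2 stayed above 0 in all 88 combinations of 1 of the 4 genes with 1 alternative setting. Depth limits genes at a few counts per sample, such as Pcdh9 in old 2.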
